A study of Mus musculus with 16 samples.

Results

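The genes described are the constitutive proteasome subunits of mouse haematopoietic stem cells (HSCs), together with the proteasome's activators and assembly factors. They were chosen by symbol, as all genes named Psma, Psmb, Psmc, Psmd, Psme, Psmf or Psmg with a number, without the immunoproteasome subunits Psmb8, Psmb9 and Psmb10. Of the 25239 genes in the count table, 45 were members, and 44 of these were among the 14124 genes that passed the filter on low counts. Psmb11, the catalytic subunit of the thymus, was the member that did not pass and had 0 counts in all 16 libraries. By role the members were 8 alpha ring, 4 catalytic beta and 4 other beta subunits of the 20S core, 6 ATPases and 11 other subunits of the 19S cap, 3 chaperones of cap assembly, 4 chaperones of core assembly, and 5 activators or inhibitors.

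The proteasome degrades proteins that carry ubiquitin chains. Its barrel-shaped core holds the cutting sites inside beta rings that lie between alpha rings, and its cap binds the tagged protein, removes the ubiquitin and unfolds the chain with a ring of ATPases. Subunit genes are known to be raised together by the transcription factor Nrf1, encoded by Nfe2l1, when proteasome activity falls short, and HSCs are known for keeping protein synthesis low.

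The 6 groups were bone marrow HSCs of mice aged 4 to 6 months with Selp intact (WT) or knocked out (KO); Selp encodes P-selectin, an adhesion receptor. Cells were taken fresh (3 WT and 2 KO libraries), after culture with vehicle (3 and 3), or after culture for 24 hours with PSGL-1, the glycoprotein ligand of P-selectin, at 125 ng/mL (2 and 3). The culture medium held 10% fetal calf serum, stem cell factor at 300 ng/mL, interleukin-11 at 20 ng/mL and Flt-3 ligand at 1 ng/mL; how long the vehicle cultures ran is not stated in the labels. They also do not say how the knockout was made, in which cells it acts or whether libraries came from separate mice, so a p-value here measures the spread between libraries, which may be technical.

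Library totals ran from 12590539 to 24690824 counts, and the members took between 0.732% and 1.14% of them. Levels are CPM, read counts scaled to the library total and then between libraries, given as mean ± SD over the libraries of a group. The targeted gene Selp checked the labels: it read 16.3, 63.2 and 114 CPM in fresh WT, 0 and 2.20 in fresh KO, 60.1, 26.8 and 147 in WT vehicle, 5.52, 12.5 and 4.73 in KO vehicle, 142 and 188 in WT PSGL-1, and 5.47, 0 and 10.5 in KO PSGL-1. Every KO library lay below every WT library, and counts above 0 remained in 6 of 8 KO libraries. Of the markers of HSCs reported here, Kit, Ly6a, Procr, Mecom and Hlf were above 0 in every library, Fgd5 was at 0 in 1 library and Slamf1 in 3. The library WT PSGL-1 replicate 1 stands apart: 9035 genes were detected in it against 11101 to 13480 in the others. Among the members Psma8 was at 0, Psmd13 at 0.0564 and Psmd10 at 0.282 CPM there. Some results that rest on this library are therefore given with and without it. Others, such as the changes of Psmb10 and Nfe2l1 and the members' summed level in WT PSGL-1, are given with it only.

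Upstream sequences of the 3 members that passed the test below, and of the catalytic subunit Psmb5, show the letters by which the members' regulation is usually discussed. Each is the 250 bases before the annotated start, from RefSeq on GRCm38.p6, read 5′ to 3′ on the gene's strand. Capitals mark CCAAT, the CCAAT box, and TGACNNNGC, the core of the antioxidant response element, which Nrf1 and its relatives bind, on either strand.
Psmc2 (chr5:21785025-21785274, plus strand): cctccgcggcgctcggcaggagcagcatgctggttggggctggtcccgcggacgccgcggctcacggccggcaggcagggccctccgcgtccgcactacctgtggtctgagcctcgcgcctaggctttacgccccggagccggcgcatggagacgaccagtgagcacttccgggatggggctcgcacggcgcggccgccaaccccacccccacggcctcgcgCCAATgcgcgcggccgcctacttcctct
Psmc4 (chr7:28050093-28050342, minus strand): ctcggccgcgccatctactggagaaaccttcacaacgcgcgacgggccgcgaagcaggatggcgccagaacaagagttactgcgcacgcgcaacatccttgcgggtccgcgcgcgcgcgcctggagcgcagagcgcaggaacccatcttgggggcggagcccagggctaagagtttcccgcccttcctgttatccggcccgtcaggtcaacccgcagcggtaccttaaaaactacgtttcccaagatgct
Psmd11 (chr11:80428365-80428614, plus strand): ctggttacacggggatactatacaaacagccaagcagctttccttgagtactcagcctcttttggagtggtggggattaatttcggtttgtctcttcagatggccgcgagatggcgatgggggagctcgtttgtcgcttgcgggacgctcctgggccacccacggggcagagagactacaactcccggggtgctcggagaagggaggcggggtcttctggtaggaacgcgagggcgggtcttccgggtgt
Psmb5 (chr14:54617996-54618245, minus strand): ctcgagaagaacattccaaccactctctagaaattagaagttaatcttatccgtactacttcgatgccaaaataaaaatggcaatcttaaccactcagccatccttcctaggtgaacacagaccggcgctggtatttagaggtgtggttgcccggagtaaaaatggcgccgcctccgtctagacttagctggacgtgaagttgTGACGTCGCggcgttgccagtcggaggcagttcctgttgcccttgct

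The Psmc2 window held CCAAT at 28 bases and the ETS-type letters GGAAGTG, reversed, at 86 bases before the start, Psmb5 held TGACNNNGC at 47 bases, and neither CCAAT nor TGACNNNGC was in the windows of Psmc4 and Psmd11. RefSeq windows were at hand for 37 of the 45 members. TGACNNNGC was in 5 of 37 (13.5%; 10.2% of 27025 promoters of all genes), namely Psmb5, Psmb6, Psmc6, Psmd9 and Psmd12. CCAAT was in 13 (35.1%; 34.5% of all), GGAAGTG in 5 (13.5%; 8.64%) and the E box CACGTG in 3 (8.11%; 6.05%), each counted on both strands, whether or not it overlapped another motif. In WT culture against fresh cells the median log2 fold change was 0.42 for the 5 tested members with TGACNNNGC and 0.46 for the 31 without it; in KO it was 0.44 and 0.41. With CCAAT the medians were 0.43 (12 members) against 0.47 (24) in WT and 0.42 against 0.40 in KO, so the medians with and without either of these motifs differed by less than 0.05. With GGAAGTG they were 0.52 (5 members) against 0.42 (31) in WT and 0.42 against 0.37 in KO. With CACGTG, held by 3 tested members, they were -0.01 against 0.46 in WT and 0.44 against 0.41 in KO.

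The largest feature of the members' data was the difference between cultured and fresh cells. Summed over all 45 members, the level was 7660 ± 631 CPM (SD, n = 3) in fresh WT and 10443 ± 1320 (n = 3) in WT vehicle, and 7982 ± 1562 (n = 2) in fresh KO and 10633 ± 385 (n = 3) in KO vehicle. In bulk samples, fewer cells of a type and less RNA per cell cannot be told apart. In WT, 37 of the 44 tested members had a log2 fold change above 0, against 45.5% of all genes tested, and in KO 36 of 44, against 47.5%. The members' median log2 fold change was 0.41 in WT and 0.42 in KO, where the medians over all genes were -0.07 and -0.02. Across the 44 members the changes in the 2 genotypes, which share no library, had Pearson's r of 0.66 and Spearman's rho of 0.64; genes are not independent replicates, and 35 members had the same sign in both.

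**Figure D1:**
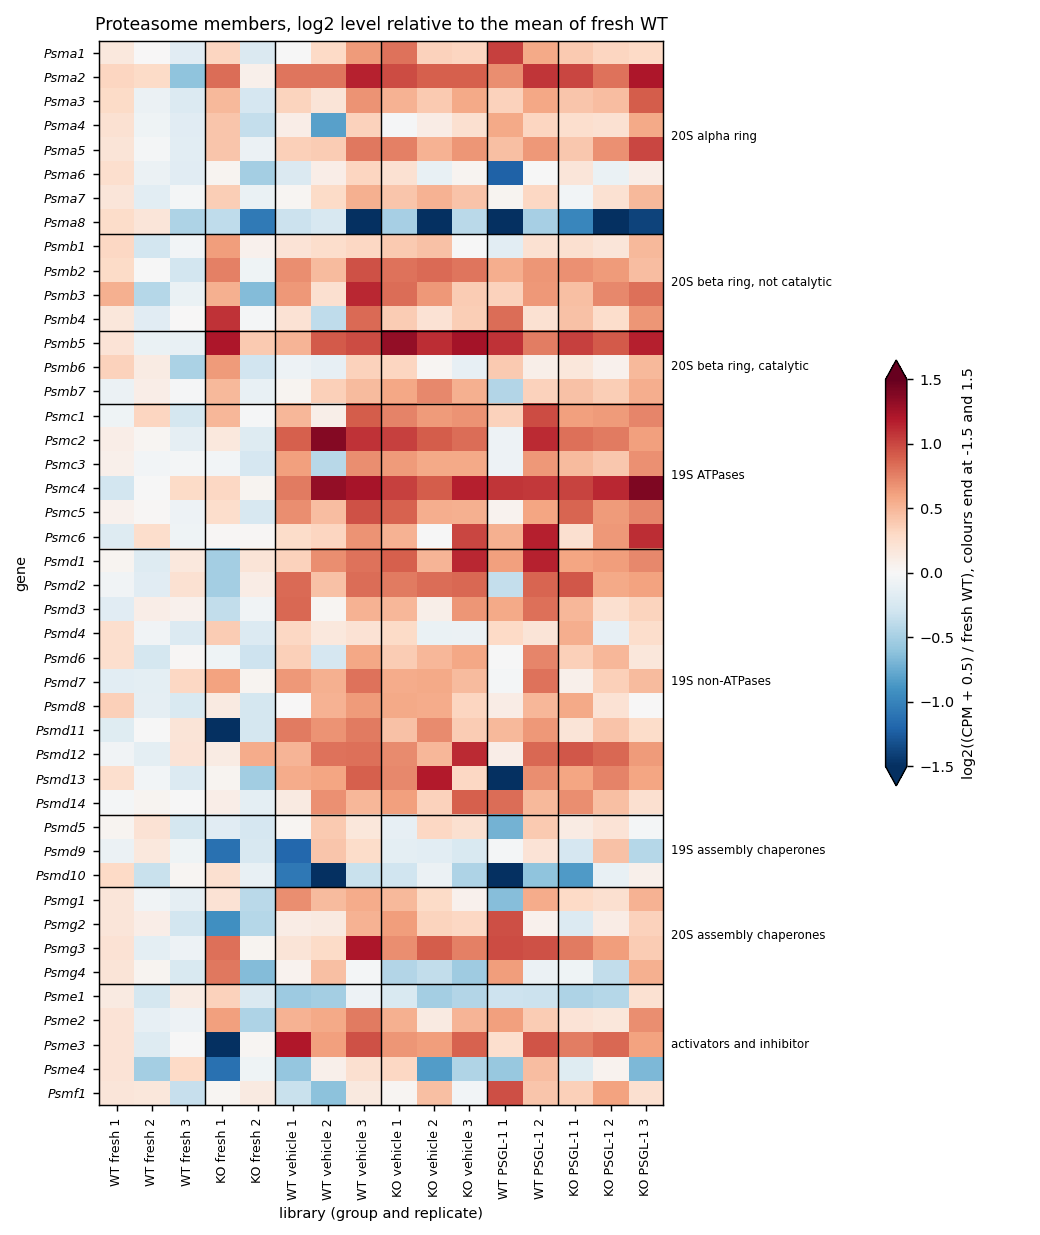
Log2 level of each of the 44 tested members (rows, grouped by role) in each of the 16 libraries (columns), relative to the mean of the 3 fresh WT libraries; red is higher and blue lower, with 0.5 CPM added before the logarithm. Most 19S rows are red in the vehicle and PSGL-1 columns, and WT PSGL-1 replicate 1 has single dark blue cells at Psma8, Psmd13 and Psmd10.

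Few single members passed the test. By edgeR's quasi-likelihood test, with p-values adjusted by the Benjamini-Hochberg method over the 14124 genes and a threshold of 0.05, 2 members rose in WT culture (Psmc2 and Psmc4) and none fell; 1.23% of all genes rose and 0.404% fell. In KO culture 1 member rose (Psmd11) and none fell, against 1.23% and 0.538% of all genes. At an unadjusted p under 0.05 there were 16 members higher and 0 lower in WT (6.74% and 5.24% of all genes) and 12 higher and 0 lower in KO (6.72% and 4.96%). All libraries of 18 members were higher in WT vehicle than in fresh WT, as for 10.3% of all genes, and all libraries of 23 members in KO vehicle than in fresh KO, as for 16.3%. In the other direction 1 member was lower without overlap in each, as for 12.7% of all genes in WT and 19% in KO. The 12 members without overlap in both genotypes were Psma2, Psma5, Psmb2, Psmc2, Psmc4, Psmc5, Psmd1, Psmd2, Psmd11, Psmd13, Psmd14 and Psme3; 5.95% of all genes were higher without overlap in both.

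These counts depended on single libraries, as did the shares of all genes called. With all libraries 1.64% of all genes were called in either direction in WT and 1.77% in KO. Without any one of the KO vehicle libraries the KO share was 0.912% to 1.07%. In WT the members' count fell to 0 without WT fresh replicate 2 (0.45% of all genes rose), where Psmc4 had an adjusted p of 0.0543 by edgeR's quasi-likelihood test. Psmc4 alone was called without any other one of the fresh WT or WT vehicle libraries, where 0.735% to 1.09% of all genes were called. In KO no member was called without KO fresh replicate 1 (0.366% of all genes rose) or without any one of the KO vehicle libraries, and 3 were called without KO fresh replicate 2 (Psmd1, Psmd11 and Psme3; 2.34% of all genes rose). Leaving out WT PSGL-1 replicate 1, which is in neither group of these comparisons but shares the filter (15095 genes passed without it), the scaling and the spread, gave Psmc2 and Psmc4 in WT (1.87% of all genes rose) and 6 members in KO (Psmc2, Psmc4, Psmd1, Psmd2, Psmd11 and Psme3; 2.4% of all genes rose). DESeq2 called 3 members in WT (Psmc2, Psmc4 and Psmc5; 3.31% of all genes higher) and 6 in KO (Psmc4, Psmd1, Psmd2, Psmd11, Psme3 and Psmg2; 4.03%). Markers of dividing cells moved with culture: 6 of 8 rose in WT and 7 of 8 in KO, and their summed level went from 1236 to 1375 CPM in fresh WT to 2898 to 3046 in WT vehicle, and from 684 to 807 in fresh KO to 2686 to 3074 in KO vehicle. Of the 7 HSC markers named above, 5 were below 0 in WT and 6 in KO, with median log2 fold changes of -1.12 and -0.66; by edgeR's test Kit fell in WT and Ly6a rose in both. Their summed level was 1243 to 1456 CPM in fresh WT and 935 to 1204 in WT vehicle, and 1310 to 1542 in fresh KO and 1431 to 1564 in KO vehicle. Of 8 granulocyte and monocyte markers, 1 fell in WT and 2 in KO by edgeR's test, and their summed level went from between 703 and 771 CPM in fresh WT to between 124 and 435 in WT vehicle, and from between 1242 and 1282 in fresh KO to between 204 and 249 in KO vehicle. Lyz2 and Prtn3 were above 0 in every library, and the other 6 of these markers were at 0 in 9 to 13 libraries. The part of these markers in the members' change was not tested.

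**Figure D2:**
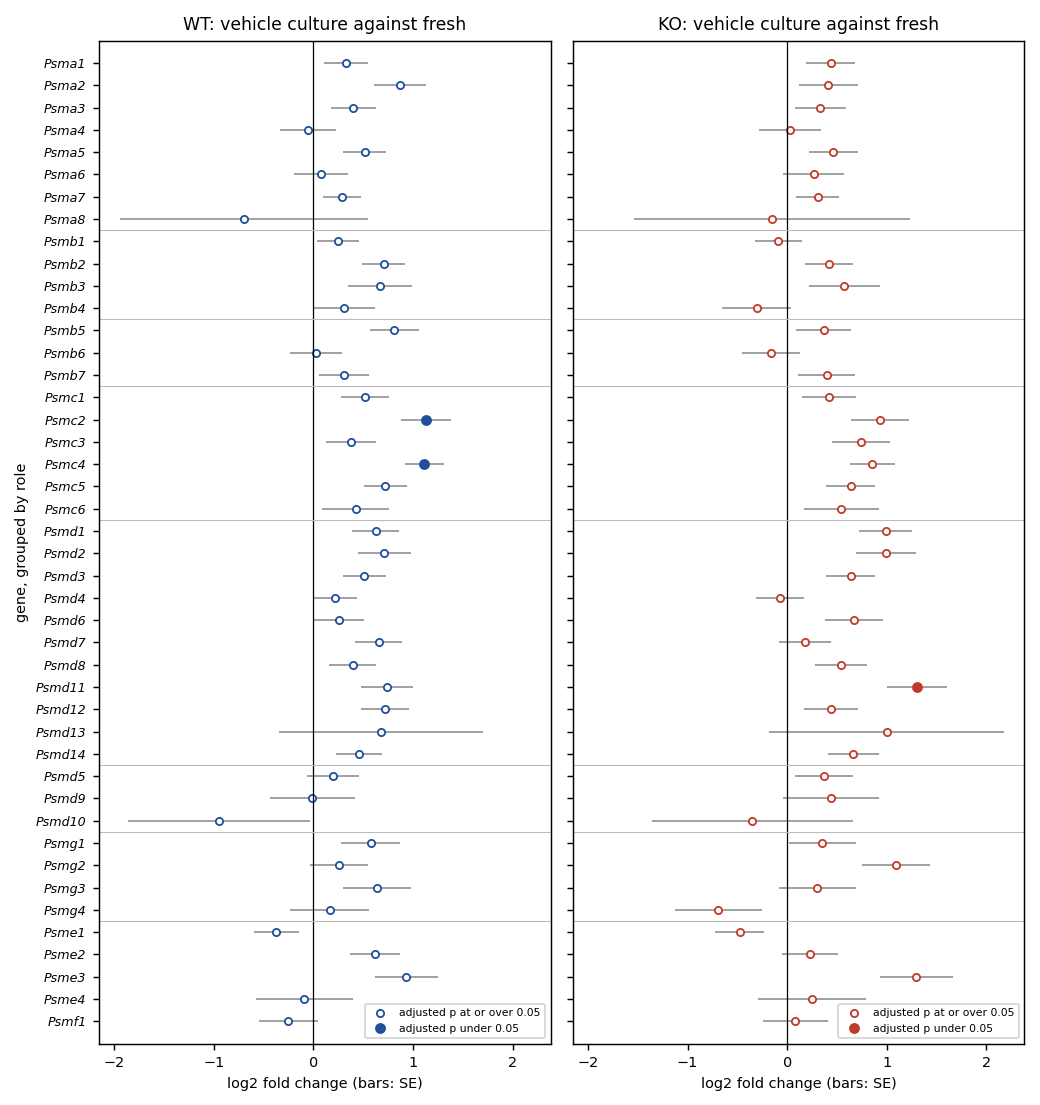
Log2 fold change of vehicle culture against fresh cells for the 44 tested members, in WT (left) and KO (right), with bars of 1 SE and filled points for an adjusted p under 0.05. Points of the 19S ATPases and non-ATPases lie right of 0 except Psmd4 in KO, and the filled points are Psmc2 and Psmc4 in WT and Psmd11 in KO.

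The 19S cap and the 20S core were then compared by their summed levels, a comparison chosen after the values were seen and given without a test. The 17 cap subunits summed to 3142 ± 79.6 CPM in fresh WT (n = 3) and 4817 ± 481 in WT vehicle (n = 3), and to 3064 ± 143 in fresh KO (n = 2) and 4884 ± 164 in KO vehicle (n = 3). All 5 fresh libraries lay between 2962 and 3202 CPM and all 6 vehicle libraries between 4390 and 5337. The 16 core subunits summed to 3507, 2809 and 2599 CPM in fresh WT, 4304 and 2596 in fresh KO, 3453, 3402 and 4585 in WT vehicle, and 4308, 3974 and 3880 in KO vehicle. For the core, fresh and vehicle libraries overlapped in both genotypes. The cap sum divided by the core sum was 1.07 ± 0.16 in fresh WT, 0.938 ± 0.287 in fresh KO, 1.27 ± 0.103 in WT vehicle and 1.21 ± 0.0654 in KO vehicle, and its ranges overlapped in WT, while in KO the highest fresh value, 1.14, lay just under the lowest vehicle value, 1.16.

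Counted by gene, all 17 cap subunits were above 0 in WT culture, with a median log2 fold change of 0.63, and 16 of 17 in KO, with a median of 0.66. Of the 15 tested core subunits 13 were above 0 in WT, with a median of 0.31, and 11 in KO, with a median of 0.33. With any one library of the WT comparison left out, all 17 cap subunits stayed above 0, and in KO 15 to 17 did. The core's median was less steady: in KO it was 0.71 when KO fresh replicate 1 was left out and 0.05 when replicate 2 was, and in WT 0.20 without WT vehicle replicate 3.

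**Figure D3:**
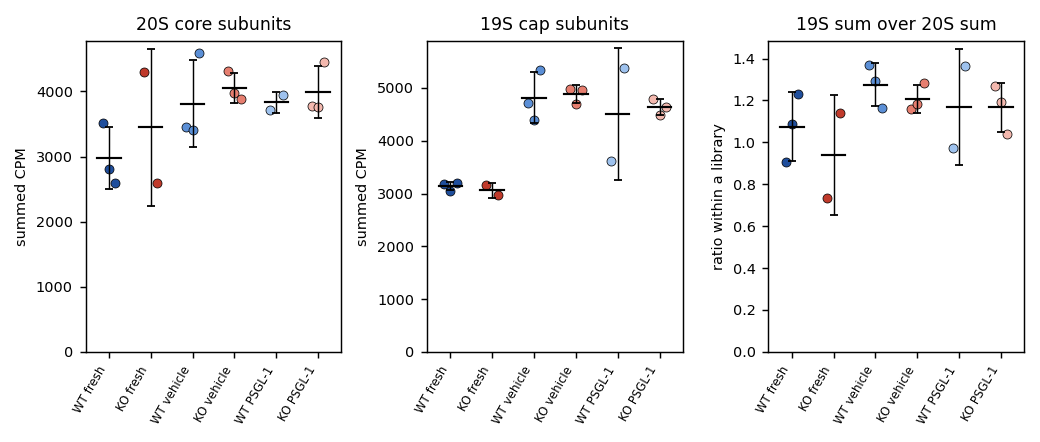
Summed CPM of the 16 subunits of the 20S core (left) and the 17 subunits of the 19S cap (middle), and the cap sum divided by the core sum (right), by group; points are libraries, lines group means and bars SD. Cap sums of fresh cells end at 3202 CPM and those of vehicle cultures start at 4390, while the core sums of fresh and vehicle libraries overlap.

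The 6 ATPases form the ring that unfolds the substrate. Psmc4 read 138, 165 and 202 CPM in fresh WT and 286, 415 and 393 in WT vehicle, with no overlap. The log2 fold change was 1.11 (SE 0.20, 95% interval 0.69 to 1.54), with an adjusted p of 0.00969 by edgeR's quasi-likelihood test. In KO the same gene read 206 and 172 CPM fresh and 340.5, 312 and 373 in vehicle, again without overlap, with a log2 fold change of 0.86 (SE 0.23) and an adjusted p of 0.0748 by edgeR's test, which did not pass. Psmc4 lies on chromosome 7 (GRCm38.p6, 28041702 to 28050092, minus strand), and no other gene's exons overlap it. Its level in both PSGL-1 groups, 351 and 349 CPM in WT and 335, 365 and 438 in KO, lay within the range of the vehicle libraries except for the highest KO library.

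Psmc2 read 162, 153 and 138 CPM in fresh WT and 280, 390 and 321 in WT vehicle. Every vehicle library was above every fresh one, by a log2 fold change of 1.13 (SE 0.25, 95% interval 0.59 to 1.67) and an adjusted p of 0.0361 by edgeR's quasi-likelihood test. In KO it read 169 and 132 CPM fresh and 308, 282 and 270 in vehicle. That change was 0.93 on the log2 scale (SE 0.29) with an adjusted p of 0.139 by edgeR's test, and 0.0180 without WT PSGL-1 replicate 1, a library in which Psmc2 stood at 142 CPM against 327 in the other WT PSGL-1 library. Psmc2 lies on chromosome 5 (21785275 to 21803787, plus strand). The other ATPases, Psmc1, Psmc3, Psmc5 and Psmc6, had log2 fold changes of 0.38 to 0.72 in WT and 0.42 to 0.74 in KO, and none passed by edgeR's test. Psmc5 had the largest change of them in WT, at 164, 159 and 149 CPM fresh and 255, 217 and 306 in vehicle, without overlap.

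Of the 11 other cap subunits, which form the scaffold, bind ubiquitin and remove it, Psmd11 was called in KO. This scaffold subunit read 64.6 and 165 CPM in fresh KO and 269, 324 and 258 in KO vehicle, a log2 fold change of 1.31 (SE 0.30, 95% interval 0.66 to 1.95) with an adjusted p of 0.0398 by edgeR's quasi-likelihood test. Its size rests on KO fresh replicate 1: without that library it was 0.76 with an adjusted p of 0.295, and without the other fresh KO library 2.17. In WT it read 175, 197 and 226 CPM fresh and 341, 315 and 340 in vehicle, without overlap, with a log2 fold change of 0.74 (SE 0.26, adjusted p = 0.231 by edgeR). Psmd11 lies on chromosome 11 (80428615 to 80473248, plus strand). Transcripts of other genes match it at 95% identity or more, so that its reads could have been split. Such matches were also found for 10 other members: Psma3, Psma4, Psma5, Psmb3, Psmb5, Psmc1, Psmd1, Psmd2, Psmd13 and Psme2. For Psmd1 and Psmd13 the matching transcript comes from a gene whose exons overlap theirs.

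The scaffold subunits Psmd1 and Psmd2 were also among the larger changes of the cap in KO. Psmd2 read 242 and 372 CPM in fresh KO and 592, 616 and 625 in KO vehicle (log2 fold change 0.99, SE 0.30), and 331, 305 and 404 in fresh WT and 620, 469 and 615 in WT vehicle (0.71, SE 0.26). Psmd1 read 120 and 195 CPM in fresh KO and 318, 244 and 373 in KO vehicle (0.99, SE 0.27), and 175, 149 and 190 against 217, 276 and 301 in WT (0.63, SE 0.23). Neither gene's fresh and vehicle libraries overlapped in either genotype, and neither passed by edgeR's quasi-likelihood test (adjusted p of 0.128 and 0.0833 in KO, 0.256 and 0.264 in WT). Psmd14, the enzyme that cuts ubiquitin off the substrate, had log2 fold changes of 0.46 (SE 0.23) in WT and 0.66 (SE 0.26) in KO. Psmd4, a ubiquitin receptor, had the smallest change of the 11 in WT, 0.22 (SE 0.22), and -0.07 (SE 0.24) in KO. For Psmd13 the changes were 0.68 (SE 1.03) in WT and 1.00 (SE 1.18) in KO; without WT PSGL-1 replicate 1 they were 0.67 (SE 0.24) and 1.02 (SE 0.28).

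**Figure D4:**
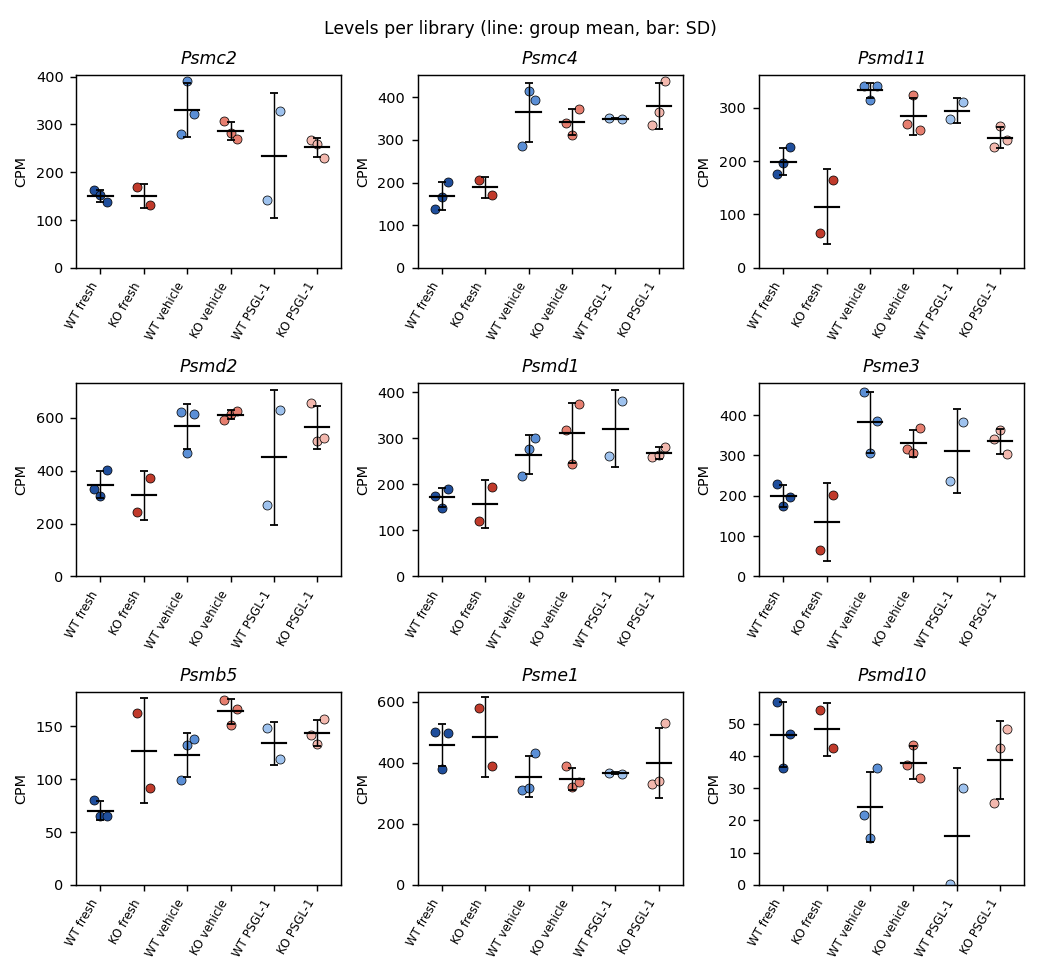
CPM per library (points) of 9 members in the 6 groups, with group means (lines) and SD (bars), on axes that start at 0. Psmc2, Psmc4, Psmd1, Psmd2, Psmd11 and Psme3 have every vehicle library above every fresh library of the same genotype, whereas Psme1 is lower in vehicle cultures on average.

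In the 20S core none of the 15 tested subunits passed by edgeR's quasi-likelihood test in culture; 4 reached an unadjusted p under 0.05 in WT and 0 in KO, and DESeq2 called 0 in both. Among the catalytic subunits Psmb5, which carries the chymotrypsin-like site, read 80.7, 65.0 and 64.7 CPM in fresh WT and 99.4, 132 and 138 in WT vehicle. That was a log2 fold change of 0.81 (SE 0.25, adjusted p = 0.143 by edgeR) without overlap. In KO it read 162 and 91.7 CPM fresh and 174, 151 and 166 in vehicle, with overlap and a change of 0.37 (SE 0.28). Psmb6, the caspase-like subunit, had changes of 0.02 (SE 0.26) and -0.17 (SE 0.29), and Psmb7, the trypsin-like subunit, 0.31 (SE 0.25) and 0.40 (SE 0.28).

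The alpha ring gates the entry to the barrel. Its largest change in WT was that of Psma2, at 182, 179 and 95.5 CPM fresh and 255, 255 and 325 in vehicle, a log2 fold change of 0.87 (SE 0.26, adjusted p = 0.136 by edgeR) without overlap. In KO Psma2 changed by 0.41 (SE 0.29). Psma8, an alpha subunit known from testis, read between 0 and 42.6 CPM over all libraries. Of the beta subunits without a cutting site, Psmb2 changed by 0.71 (SE 0.22) in WT and 0.42 (SE 0.24) in KO without overlap in either, whereas Psmb4 changed by 0.31 (SE 0.31) and -0.31 (SE 0.35).

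The assembly chaperones and activators were mixed. Psme3, which forms the PA28-gamma activator of the nucleus, read 229, 174 and 198 CPM in fresh WT and 457, 305 and 385 in WT vehicle, and 66.3 and 203 in fresh KO and 316, 307 and 368 in KO vehicle. It did not overlap in either genotype; the log2 fold changes were 0.93 (SE 0.32, adjusted p = 0.209 by edgeR) and 1.30 (SE 0.37, adjusted p = 0.0998), the second being 0.69 without KO fresh replicate 1. Psme1, a subunit of the PA28 activator that interferon induces, lay on the other side, at 500, 381 and 498 CPM in fresh WT and 313, 319 and 434 in WT vehicle, and 579 and 392 in fresh KO and 389, 320 and 337 in KO vehicle. Its changes were -0.37 (SE 0.22) and -0.48 (SE 0.25), with overlap in WT and none in KO. Its partner Psme2 changed by 0.62 (SE 0.25) and 0.23 (SE 0.28), and the inhibitor Psmf1 by -0.25 (SE 0.29) and 0.08 (SE 0.33).

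Psmd10, a chaperone of cap assembly also called gankyrin, was the only member whose WT vehicle libraries all lay below the fresh ones, at 56.7, 36.4 and 46.9 CPM against 21.6, 14.7 and 36.2; 12.7% of all genes were lower without overlap. Its log2 fold change was -0.95 (SE 0.91), and without WT PSGL-1 replicate 1 the SE was 0.44, with an adjusted p of 0.313 by edgeR. The core chaperones Psmg1, Psmg2, Psmg3 and Psmg4 changed by 0.57, 0.26, 0.64 and 0.16 in WT and by 0.35, 1.09, 0.30 and -0.69 in KO, none past the threshold of edgeR's test. Psmg4 in KO rested on KO fresh replicate 1, without which its change was 0.19.

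In immune cells the 3 constitutive catalytic subunits can be replaced by Psmb9, Psmb10 and Psmb8, so each constitutive subunit was set against its replacement within a library. The log2 ratio of Psmb5 to Psmb8 was between -2.99 and -1.87 in the 5 fresh libraries and between -2.05 and -0.98 in the 6 vehicle libraries. It was higher in vehicle by 1.16 in WT and 0.91 in KO, and by 1.03 in all (adjusted p = 0.0075, exact two-sided permutation test within genotypes, adjusted over the 3 ratios). The ratio of Psmb7 to Psmb10 lay between -1.66 and -1.0 in fresh and -0.97 and -0.28 in vehicle libraries, a shift of 0.71 (adjusted p = 0.0075 by the same exact test). For both the unadjusted p was 0.005, the smallest that the 200 permutations can give, and in both genotypes no vehicle library lay below a fresh one. The ratio of Psmb6 to Psmb9 shifted by 0.48, from between 0.0023 and 0.87 to between 0.59 and 1.37, with an adjusted p of 0.05 by the exact permutation test, which is not under the threshold of 0.05.

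**Figure D5:**
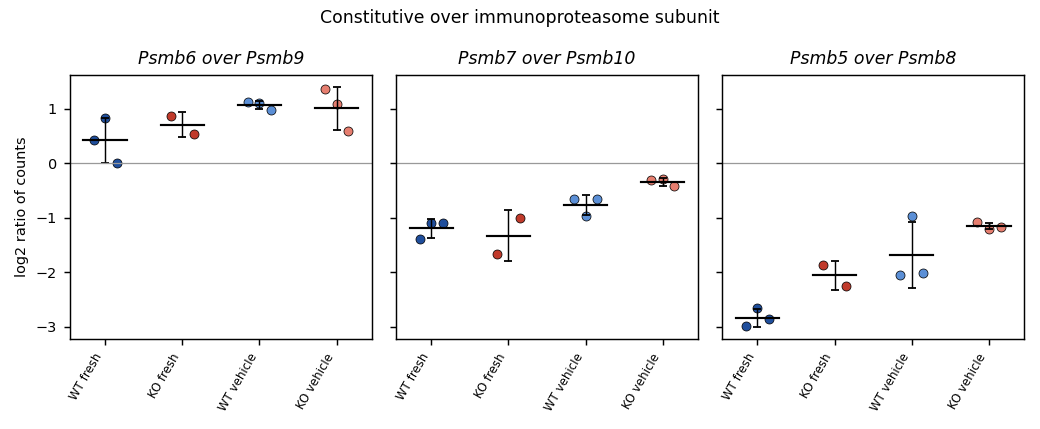
Log2 ratio of the counts of a constitutive catalytic subunit to those of its immunoproteasome replacement in each fresh and vehicle library (points), with group means (lines) and SD (bars); 0 means equal counts. For Psmb7 over Psmb10 and Psmb5 over Psmb8 every vehicle library lies above every fresh library of the same genotype, and for Psmb6 over Psmb9 that holds in WT and not in KO.

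The immunoproteasome genes themselves had log2 fold changes below 0 in culture in both genotypes, and none of the 3 passed by edgeR's quasi-likelihood test. Psmb8 read 643, 412 and 467 CPM in fresh WT and 411, 260 and 553 in WT vehicle. The changes were -0.31 (SE 0.29) for Psmb8, -0.60 (SE 0.26) for Psmb9 and -0.12 (SE 1.05) for Psmb10 in WT, and -0.50, -0.43 and -0.70 in KO. Psmb10 was at 0 in WT PSGL-1 replicate 1, which shares the fit with these comparisons.

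Genes that work with the proteasome were read from lists of known partners. Of 10 further subunits and partners none passed in culture by edgeR's test in either genotype, DESeq2 called 2 higher in each, and 9 were above 0 in WT and 7 in KO. The ubiquitin receptor of the cap Adrm1 read 171, 150 and 171 CPM in fresh WT and 278, 239 and 281 in WT vehicle, and 155 and 131 in fresh KO and 239, 223 and 255 in KO vehicle. It did not overlap in either, with log2 fold changes of 0.69 (SE 0.18, adjusted p = 0.0655 by edgeR) and 0.74 (SE 0.20, adjusted p = 0.0832). The cap-bound deubiquitinases Uchl5 and Usp14 changed by 0.89 (SE 0.25) and 0.36 (SE 0.27) in WT and by 0.86 (SE 0.28) and 1.18 (SE 0.31) in KO. Usp14 read 42.3 CPM in KO fresh replicate 1 and 103 in replicate 2, against 183, 159 and 151 in KO vehicle. The size of its KO change thus leans on KO fresh replicate 1. Of 8 genes of the Nrf1 pathway, 0 passed and 5 were above 0 in each genotype. Nfe2l1 changed by 0.63 (SE 0.70) in WT and 0.10 (SE 0.79) in KO. It read 70.9, 104 and 72.6 CPM in fresh WT and 151, 111 and 120 in WT vehicle, without overlap. In KO it read 84.8 and 52.6 CPM fresh and 43.2, 103 and 74.1 in vehicle, with overlap. WT PSGL-1 replicate 1, which shares the fit, read 2.99 CPM against 93.3 in the other WT PSGL-1 library. The changes of Nfe2l1 are given with that library only. Of 7 shuttle factors that bring ubiquitinated proteins to the cap, 0 passed by edgeR's test, DESeq2 called 1 higher in KO, and 7 were above 0 in WT and 6 in KO. The shares of all genes given above for the members, 1.23% higher by edgeR and 3.31% and 4.03% by DESeq2, hold for these lists too. Of 6 ubiquitin and ubiquitin-activating enzyme genes 0 passed and 3 were above 0 in each.

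The difference between genotypes was tested in each condition. By edgeR's quasi-likelihood test 0 of 44 members differed between KO and WT in fresh cells, in vehicle or in PSGL-1 cultures, where 0.00708% of all genes, 1 gene, passed in each. At an unadjusted p under 0.05 there were 2 members in fresh cells and 0 in vehicle and PSGL-1, against 2.84%, 2.83% and 5.81% of all genes. DESeq2 called 0 members in each, against 0.7%, 0.81% and 1.79% of all genes. The members' median log2 difference was 0.06 fresh, 0.05 in vehicle and 0.03 in PSGL-1, against 0, 0 and 0.17 over all genes. In fresh cells Psmb5 was higher in KO without overlap, by 0.86 (SE 0.27, 95% interval 0.28 to 1.43), and in vehicle by 0.41 (SE 0.25, 95% interval -0.11 to 0.94), also without overlap; the adjusted p by edgeR was 1 in both. Without KO fresh replicate 1 the difference in fresh cells was 0.39. Psmd11 was lower in fresh KO by a log2 difference of -0.79 (SE 0.30, 95% interval -1.43 to -0.16, adjusted p = 1 by edgeR). Without KO fresh replicate 2, which leaves 1 fresh KO library assumed to vary like the other groups, Psmd11 and Psme3 were called lower in KO, as were 0.508% of all genes, Psmd11 by -1.65 with an adjusted p of 0.0104 by edgeR's test. Without KO fresh replicate 1 no member was called, and the difference of Psmd11 was -0.27. In all, 1 member was higher and 4 lower without overlap in fresh KO (9.78% and 9.2% of all genes), namely Psmb5, and Psmc3, Psmd9, Psmd11 and Psmg2. Fresh KO libraries also had a lower sum of the markers of dividing cells and a higher sum of the granulocyte and monocyte markers than every fresh WT library, with the ranges given above; their part in these differences was not tested.

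The fresh KO libraries differed from each other in the members' levels. KO fresh replicate 1 was above replicate 2 in 34 of 44 members, with a median log2 difference of 0.51. The higher members were mostly the shorter ones: of the 22 members with exons of under 1561 bases in sum, 21 were higher in replicate 1 (median 0.58), and of the 22 longer ones 13 were (median 0.14). Across the members that difference had Spearman's rho of -0.70 with exon length, where the other 13 pairs of libraries of 1 group had -0.36 to 0.37; members are not independent, and the part of length in the results was not tested. The fresh difference between KO and WT had a rho of -0.41 with length, the KO culture change 0.31 and the WT culture change 0.04.

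No member passed the test of PSGL-1 against vehicle. By edgeR's quasi-likelihood test 0 of 44 members differed between PSGL-1 and vehicle in WT or in KO, as did 0% of all genes. At an unadjusted p under 0.05 there were 1 in WT and 0 in KO (5.69% and 1.4% of all genes), and DESeq2 called 0 in both (1.71% and 0.299%). The medians were -0.04 in WT and -0.01 in KO (-0.11 and -0.0007 over all genes), and the summed level was 10105 ± 1543 CPM (n = 2) in WT PSGL-1 and 10389 ± 558 (n = 3) in KO PSGL-1. The 1 member past the unadjusted threshold was the inhibitor Psmf1 in WT, at 60.6, 49.8 and 85.0 CPM in vehicle and 150 and 102 with PSGL-1, without overlap. The 150 CPM was read in the sparse library, WT PSGL-1 replicate 1. Without it, the remaining library, at 102 CPM, still lay above every WT vehicle library. With both libraries the log2 fold change of Psmf1 was 0.95 (SE 0.32, 95% interval 0.26 to 1.64) with an adjusted p of 0.774 by edgeR's test. In KO Psmf1 read 78.3, 105 and 74.5 CPM in vehicle and 98.4, 116 and 90.8 with PSGL-1, with overlap.

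For KO the log2 fold changes of all members with PSGL-1 lay between -0.50 and 0.54, and for WT between -0.99 and 0.95. With WT PSGL-1 replicate 2 left out, so that the sparse library alone stood for the group, 9 members were called against vehicle in WT (19.7% of all genes) and 6 between genotypes (19.8%), and 5 had a different PSGL-1 response in KO and WT (15.8%). The lone library was assumed to vary like the other groups, and the members' shares were near or under those of all genes. The sparse library's own levels of Psma8, Psmd10 and Psmd13, at or near 0, and of Psma6 (102 CPM against 235 in the other library), Psmc2 and Psmd2 were among those called. With all libraries, 0 members differed between genotypes in their response to culture or to PSGL-1 by edgeR's test (0% of all genes in each). None reached an unadjusted p under 0.05 (2.5% and 4.33% of all genes), DESeq2 called 0 in each (0.504% and 0.861%), and the medians were 0.05 and 0.04. The log2 differences lay between -0.85 and 0.83 for culture and between -0.70 and 0.85 for PSGL-1.

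Although 1 particle holds its subunits in equal numbers, their transcripts were not at equal levels. Per kilobase of exon, Psmb6 was the highest of 14 core subunits in fresh WT, at 386 ± 106 CPM per kb. Psma2 was the lowest, at 52.2 ± 16.8, a ratio of 7.38. Psma8 and Psmb11 were left out of this comparison. The ratio depends on the annotated exon lengths, 798 bases for Psmb6 and 2911 for Psma2. The GENCODE model of Psma2 ends at 14674236 and the RefSeq model at 14625673. In CPM, without division by length, Psmb6 read 308 ± 84.7 and Psma2 152 ± 49.0 in fresh WT. Psmb5 was lower, at 70.1 ± 9.15 CPM. The cap ran from Psmc6, at 25.3 ± 4.32 CPM per kb, to Psmd7, at 141 ± 27.2. In vehicle and PSGL-1 cultures of both genotypes Psmc4 was the highest cap subunit, at 253 ± 48.0 CPM per kb in WT vehicle and 237 ± 21.3 in KO vehicle, against 117 ± 22.5 in fresh WT and 131 ± 17.1 in fresh KO. In WT vehicle Psmd7 was next to it at 222 ± 22.1, within the spread of Psmc4.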

How the data were processed

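Raw read counts per gene were deposited by the authors, 1 column per library. RNeasy Plus Micro columns and the SMART Ultra-Low Input kit v4, which amplifies full-length cDNA, were used per the labels' protocols. The submitters' processing notes name mm10, STAR 2.7.5c, featureCounts, MultiQC 1.10 and DESeq2; the strand setting and the handling of multiply matching reads are not given there.

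Genes passing filterByExpr by group (14124) were fitted in 1 edgeR quasi-likelihood model over all 16 libraries with a mean per group and TMM scaling (R 4.3.3, edgeR 4.0.16, limma 3.58.1), because some groups hold 2 libraries. Adjusted p-values are Benjamini-Hochberg over all tested genes, with a threshold of 0.05. SE is the log2 fold change divided by the square root of F, and 95% intervals use the test's degrees of freedom. The common biological coefficient of variation was 0.977. A floor of 3 counts was 0.123 to 0.230 CPM, for counting error only. Ratios used counts plus 0.5. Exon lengths are GENCODE M21 unions; sequences and positions are RefSeq, GRCm38.p6. No 2 libraries of 1 group agreed within sampling noise (smallest chi-square per degree of freedom 59.8).

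Members and lists were chosen with earlier results of these data known. Members whose values are given in full are those called, those with the largest changes in a comparison among members without overlap, and the catalytic subunits; others were chosen after their values were seen. Alternatives were DESeq2 1.42.0, RLE scaling, no filter, at least 5 CPM in 2 libraries, each library left out, and the replicate number as a block. The fitting step was tested on simulated data. Marker lists of other cells were read too: globin genes, Cd3 genes and Ms4a1 were at 0 in all libraries. Some other genes of these lists were not at 0. The B cell marker Cd79b was above 0 in all libraries, at 3.83 to 62.6 CPM. Nkg7, of the T and NK cell markers, was at 0 in 1 library and reached 88.6 CPM. Of the erythroid markers, Epor was at 0 in 1 library and Klf1 and Gata1 in 2 each. The T and NK cell markers summed to 78.0 ± 19.0 CPM in fresh WT and 19.7 ± 3.42 in WT vehicle. In KO these sums were 43.4 ± 6.79 and 14.9 ± 4.38. The megakaryocyte and platelet markers Itga2b and Pf4 and the endothelial marker Pecam1 were above 0 in all libraries.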

Additional observations from a re-analysis of the deposited data

How the results depend on the processing

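In culture against fresh cells, DESeq2 called 6 members in KO (6.43% of all genes in either direction) and edgeR 1 (1.77%). Without a filter edgeR called 0 in KO (1.5% of all genes). With the replicate number as a block, 1 member was called in WT (1.4% of all genes), against 2 without it (1.64%). The block changed the members' count in no other comparison. The running numbers in the count columns' names place the fresh KO and WT PSGL-1 libraries with later replicates of the other groups than their replicate numbers do. A block by those running numbers was not fitted. The replicate numbers were not taken as pairs: 0 of 36 same-numbered pairs of libraries had deviations correlated over 0.1 (-0.07 to 0.08). That check cannot decide whether libraries were paired by running number, because it matches the fresh KO and WT PSGL-1 libraries by replicate number. Of 70 pairs with other replicate numbers, 1 was just over 0.1. It was WT vehicle replicate 3 with WT PSGL-1 replicate 2, which the running numbers place together. No pair of libraries was crossed.

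With single libraries left out, members called ranged from 0 to 2 in WT culture and from 0 to 6 in KO culture. For KO against WT they ranged from 0 to 2 in fresh cells, from 0 to 6 in PSGL-1, and for PSGL-1 against vehicle in WT from 0 to 9. The genotype difference in the PSGL-1 response gave 0 to 5. The members' median log2 fold change ranged from 0.25 to 0.53 in WT culture and from 0.19 to 0.69 in KO culture. For KO against WT it ranged from -0.17 to 0.21 in fresh cells and from -0.046 to 0.26 in PSGL-1, and for PSGL-1 against vehicle in WT from -0.24 to 0.055. The genotype difference had medians of -0.15 to 0.19 for culture and -0.15 to 0.18 for PSGL-1. The shift of Psmb6 over Psmb9 ranged from 0.37 to 0.58 and passed the exact permutation test in 3 of these settings.

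Of 76 member and comparison pairs followed over all settings, 25 had a change of sign and 0 of these were among called values. The groups hold 2 or 3 libraries each, which limits what single members can show.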
